A study of Homo sapiens with 26 samples.

Results

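The genes described here are 10 that take up, activate or inactivate cytidine analogues or make the pyrimidine pools these drugs compete with. They were chosen by name for those roles, as rows of a table of 57773 genes: the transporters SLC29A1 and SLC29A2, the kinases UCK1, UCK2 and DCK, the deaminases CDA and DCTD, the ribonucleotide reductase subunits RRM1 and RRM2, and CAD. Their RNA was measured in TF-1, an established human erythroleukemia line that needs the cytokine GM-CSF to grow. Clones F4 and A12 carried a knockout of TET2 (KO), which encodes an enzyme that oxidises 5-methylcytosine in DNA, and clones A7 and C4 were wild-type for it (WT). Cultures were taken before treatment, or 72 h or 264 h after the first of 3 daily doses of 200 nM 5-azacytidine (Aza) or of its solvent DMSO. Batch 1 held each of the 4 clones in each of these 5 conditions, and batch 2 held both KO clones in DMSO at the 3 times. The batch 2 libraries at time 0 are labelled both as pre-treatment and as DMSO and were kept as a group of their own. Each genotype is therefore represented by a pair of clones of one line, and a clone's own history cannot be told apart from its genotype.

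Aza is a prodrug. Nucleosides cross the plasma membrane through the equilibrative transporters encoded by SLC29A1 and SLC29A2. Uridine-cytidine kinases, encoded by UCK1 and UCK2, add the first phosphate to cytidine and to Aza, whereas DCK starts the activation of deoxycytidine and of its analogue decitabine. Cytidine deaminase, the product of CDA, inactivates these nucleosides, and dCMP deaminase, the product of DCTD, acts one step later on the deoxynucleotide. Ribonucleotide reductase, made of RRM1 and RRM2, turns ribonucleotides into deoxyribonucleotides and so links Aza to DNA, where it traps DNA methyltransferases. CAD carries the opening steps of de novo pyrimidine synthesis, which supplies the competing natural nucleotides.

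Of 26 libraries, 25 were used. The batch 1 library of clone F4 in DMSO at 72 h is labelled as failing quality control and was left out, so the Aza library of F4 at 72 h has only a batch 2 DMSO partner. The 25 libraries held 24992192 to 40187322 counts each (median 27477937), and 3 counts, used as the floor, correspond to 0.0729 to 0.12 CPM (counts divided by library size and scaled to a common total). The table counts all TET2 exons together and gave 24.91 to 46.38 CPM in KO (n = 15) and 22.46 to 29.96 CPM in WT (n = 10), so it does not check the knockout. TF-1 identity markers had a summed level over 10 genes of 3688 to 6673 CPM. TFRC was the largest of them, at a mean of 2873 CPM, followed by GATA2 at 694.1 CPM. KIT and EPOR were far lower, at means of 19.64 and 17.7 CPM. CSF2RA, the GM-CSF receptor's own alpha chain, is listed at 0 in all 25 libraries and checks nothing here. Neutrophil and monocyte genes ELANE, S100A8 and CD14 reached at most 3, 8 and 10 counts, and the B cell gene MS4A1 was at 0 throughout. Other genes of the same lists were expressed: the myeloid genes ITGAM and LYZ at means of 75.03 and 39.19 CPM, and the T cell gene CD3D at 20.59 CPM (up to 61.37 CPM). CD3D was at 40.81 ± 21.87 CPM in KO (SD, n = 3) and 2.179 ± 1.116 CPM in WT (SD, n = 2) with DMSO at 72 h, and its part in the results was not tested. In bulk RNA, fewer cells with a transcript and less of it per cell cannot be told apart. The libraries of a group come from different clones or cultures of one line. In the model of all 25 libraries, p-values measure the spread left after its clone and batch terms, estimated over all groups together. The fits of KO against WT hold no such terms. Among WT libraries the pre-treatment ones go against their clone labels: same-clone deviations from the group mean correlated at -0.523 to -0.478 with the later libraries, against 0.451 to 0.516 among the later ones.

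Aza acts on DNA methylation, which in human cells sits at CpG pairs, so the promoter windows of the genes are shown with their CpG pairs. RefSeq windows on GRCh38.p14, from 250 bases before to 50 bases after a start, were matched for 9 of the 10 genes (12 windows), and SLC29A2 was not among them. The last 120 bases before the start are printed 5′ to 3′ for the gene called at 72 h in both genotypes (SLC29A1), for the kinase called in KO (UCK1), for the reductase subunit that differed between culture times (RRM2) and for the least abundant gene (CDA). Capitals mark CpG.
SLC29A1, chr6:44219495-44219614, plus strand: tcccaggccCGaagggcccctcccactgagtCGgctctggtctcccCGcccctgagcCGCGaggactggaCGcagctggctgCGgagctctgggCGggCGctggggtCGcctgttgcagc
UCK1, chr9:131531264-131531383, minus strand: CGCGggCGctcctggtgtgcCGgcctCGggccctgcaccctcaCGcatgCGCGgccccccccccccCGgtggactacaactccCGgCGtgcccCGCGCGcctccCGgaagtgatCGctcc
RRM2, chr2:10122448-10122567, plus strand: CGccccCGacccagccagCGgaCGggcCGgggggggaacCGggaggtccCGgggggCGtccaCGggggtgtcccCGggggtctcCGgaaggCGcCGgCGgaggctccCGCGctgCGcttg
CDA, chr1:20588977-20589096, plus strand: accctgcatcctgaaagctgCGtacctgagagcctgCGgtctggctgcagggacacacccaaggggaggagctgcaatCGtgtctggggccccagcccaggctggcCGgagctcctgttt

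CDA stood apart from the other genes in this respect. Its 300-base window held 8 CpG pairs, while the 11 windows of the other genes held 21 to 47 and the median of 34796 distinct windows in the table was 14. Of all windows, 39.4% had fewer CpG pairs than that of CDA and 97.6% had fewer than the richest window of DCTD. Short motifs were counted on both strands. The GC box GGGCGG occurred in 10 of the 12 windows, against 44.9% of all windows, and UCK2 held 4 copies. CCAAT occurred in 5 of the 12 windows, against 34.6% of all, and the second window of RRM2 held 3 copies. AGATAA, the letters that GATA factors bind, occurred in 0 of the 12 windows and in 10.4% of all. The E2F-like letters TTTGGCG occurred in 1 window, that of DCK, against 1.92% of all, and TTTCCCG in 1, that of CDA, against 4.27%. These are matches of letters, and binding and methylation were not measured.

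Per transcript length, all genes but CDA were well expressed. As TPM (counts divided by exon length and scaled to a common total), the mean over 25 libraries was 152 ± 11.22 (SD) for SLC29A1 and 147.2 ± 28.47 for RRM2. RRM1 followed at 103.3 ± 9.062, DCK at 91.96 ± 10.89, CAD at 85.78 ± 8.257, DCTD at 82.89 ± 19.45 and SLC29A2 at 75.74 ± 9.305. From SLC29A1 down to SLC29A2 each gene's range over the libraries overlapped that of the next. Within libraries, RRM1 exceeded DCK in 24 of 25 and RRM2 exceeded RRM1 in 23 of 25, while the other 4 steps held in 16 of 25 each. Below them UCK2 lay at 42.2 ± 2.164 TPM, UCK1 at 20.96 ± 2.6 TPM and CDA at 1.977 ± 0.8984 TPM, and each of these steps held in 25 of 25 libraries. CDA was covered by 2 to 49 counts per library, so its values carry the largest counting error of the set; it stood above 19.58% of the protein-coding genes tested, SLC29A1 above 93.47%.

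**Figure D1:**
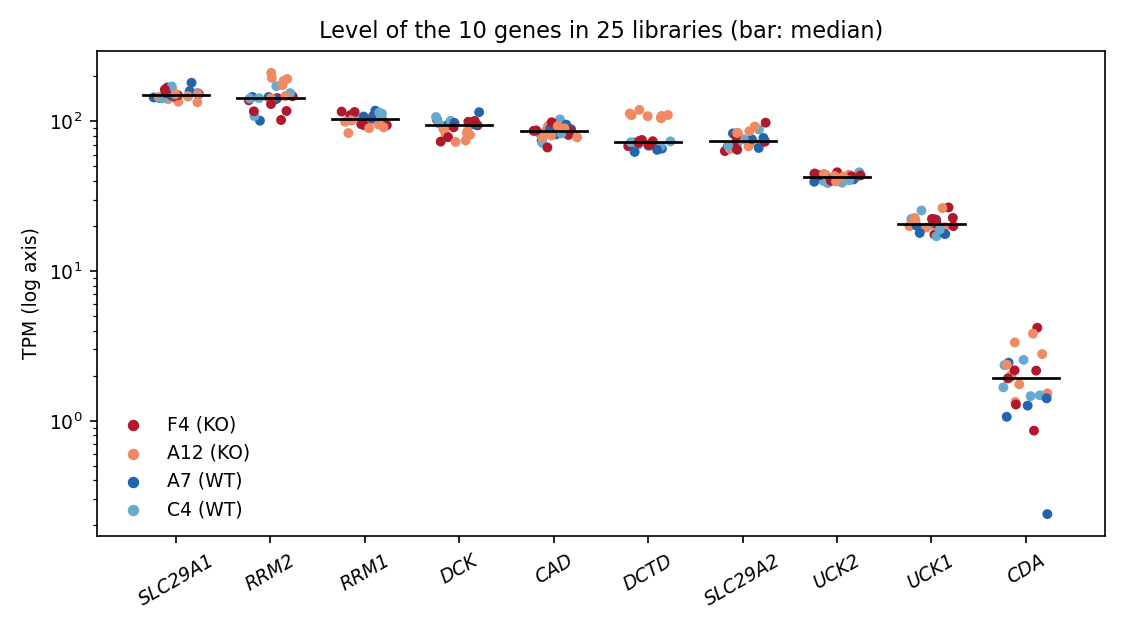
Level per transcript length of the 10 genes on a log axis (TPM); each point is 1 of 25 libraries, coloured by clone, and the bar is the median. CDA lies between 0.2378 and 4.181 TPM while the other genes are at 17.09 TPM or more in each library; the raised points of DCTD belong to clone A12.

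Ratios within a library describe the balance between partners. SLC29A1 exceeded SLC29A2 in each library, by 1.597 to 2.662 times in TPM (median 2.053), and UCK2 exceeded UCK1 by 1.505 to 2.675 times (median 2.055). DCK exceeded UCK2 by 1.69 to 2.738 times (median 2.255). RRM2 ranged from 0.933 to 2.123 times RRM1 (median 1.338). The deaminase CDA was at 0.01964 times the level of DCK (median, range 0.002501 to 0.04695).

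At 72 h, Aza was accompanied by higher RNA of SLC29A1 in both genotypes and of UCK1 and DCTD in KO, by fitted folds of 1.16 to 1.41. Each comparison set Aza against DMSO of the same genotype and time, with edgeR's quasi-likelihood test in a model of all 25 libraries with group, clone and batch terms, and a gene is called at a Benjamini-Hochberg adjusted p under 0.05 over the genes tested. In KO, 3 of the 10 genes were called, all higher, where 20.1% of 18391 genes tested were called. In WT, 1 of the 10 was called, also higher, where 18.3% were called. The median log2 difference over the 10 genes was 0.14 in KO and 0.12 in WT, against 0.01 and 0.00 over all genes tested. Both member counts lie near these background shares or below. Marker lists differed with Aza at this time as well: 8 of 13 erythroid maturation genes tested rose in KO and 5 in WT, and 6 of 9 TF-1 identity genes rose in KO and 5 in WT, where 1, GATA2, fell. The summed level of the 13 erythroid genes was 408.6 to 416.8 CPM with Aza and 139.9 to 349.7 CPM with DMSO in KO, and 667.4 to 952.5 against 368.3 to 743.9 CPM in WT. Of the granulocyte and monocyte list, 7 of 12 genes were testable, of which 3 rose and 1 fell in KO and 2 rose and 1 fell in WT. The sum of its 12 genes was 93.26 to 107.7 CPM with Aza and 110.7 to 117.8 CPM with DMSO in KO, and 88.36 to 95.21 against 114.2 to 118.4 CPM in WT, lower with Aza without overlap. ITGAM, the most abundant of them, fell by 0.80 in KO and by 0.72 in WT on the log2 scale. The part of these shifts in the values below was not tested.

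SLC29A1 (ENSG00000112759.12, chromosome 6, 44187242 to 44201888 on hg19, plus strand) encodes ENT1, the main equilibrative carrier of nucleosides. In KO it was at 192.2 CPM (F4) and 187.3 CPM (A12) with Aza at 72 h, against 152.3 CPM (A12, batch 1), 177.3 CPM (F4, batch 2) and 172.8 CPM (A12, batch 2) with DMSO. In WT it was at 209.8 CPM (A7) and 189.6 CPM (C4) with Aza and at 162.8 and 163.8 CPM with DMSO. In both genotypes the Aza libraries lay above all DMSO libraries of that time. The fitted log2 difference was 0.31 (SE 0.06, fold 1.24, edgeR adjusted p = 0.000677) in KO and 0.29 (SE 0.06, fold 1.22, adjusted p = 0.000723) in WT. Within batch 1 it was 0.29 in both genotypes, and in WT it kept its call. In KO, batch 1 held 1 DMSO library of that time, that of A12. For KO only the size of the batch 1 difference is therefore given here. Aza over DMSO of the same clone was 1.23 in A12 within batch 1. Against batch 2 DMSO it was 1.084 in A12 and 1.084 in F4. Batch 2 read higher than batch 1 for this gene in 3 of 3 matched DMSO pairs, by 1.134 to 1.19 times, and the fit takes this up in its batch term. With the library that failed quality control, at 215.8 CPM the highest of any, added to the DMSO group, the KO difference was 0.11 (adjusted p = 0.525) and the WT one 0.28 (adjusted p = 0.186). In fits that dropped 1 clone, and so left a single Aza library whose spread is taken from the other groups, the KO call was lost without F4 (0.28, adjusted p = 0.0528) and without A12 (0.35, adjusted p = 0.2), and the WT call without A7 (0.20, adjusted p = 0.147).

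SLC29A2 (ENSG00000174669.7, chromosome 11, 66129992 to 66139685, minus strand) encodes ENT2, the second equilibrative carrier. With Aza at 72 h it was at 57.27 and 65.76 CPM in KO and 62.43 and 63.23 CPM in WT, and the DMSO libraries spanned 57.04 to 77.6 CPM. The groups overlapped in KO, and the log2 difference was 0.02 (95% interval -0.17 to 0.21) in KO and 0.11 (-0.07 to 0.29) in WT. Of its exon bases, 10.257% also belong to B4GAT1-DT on the other strand, and reads there cannot be assigned because the counting used no strand option.

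**Figure D2:**
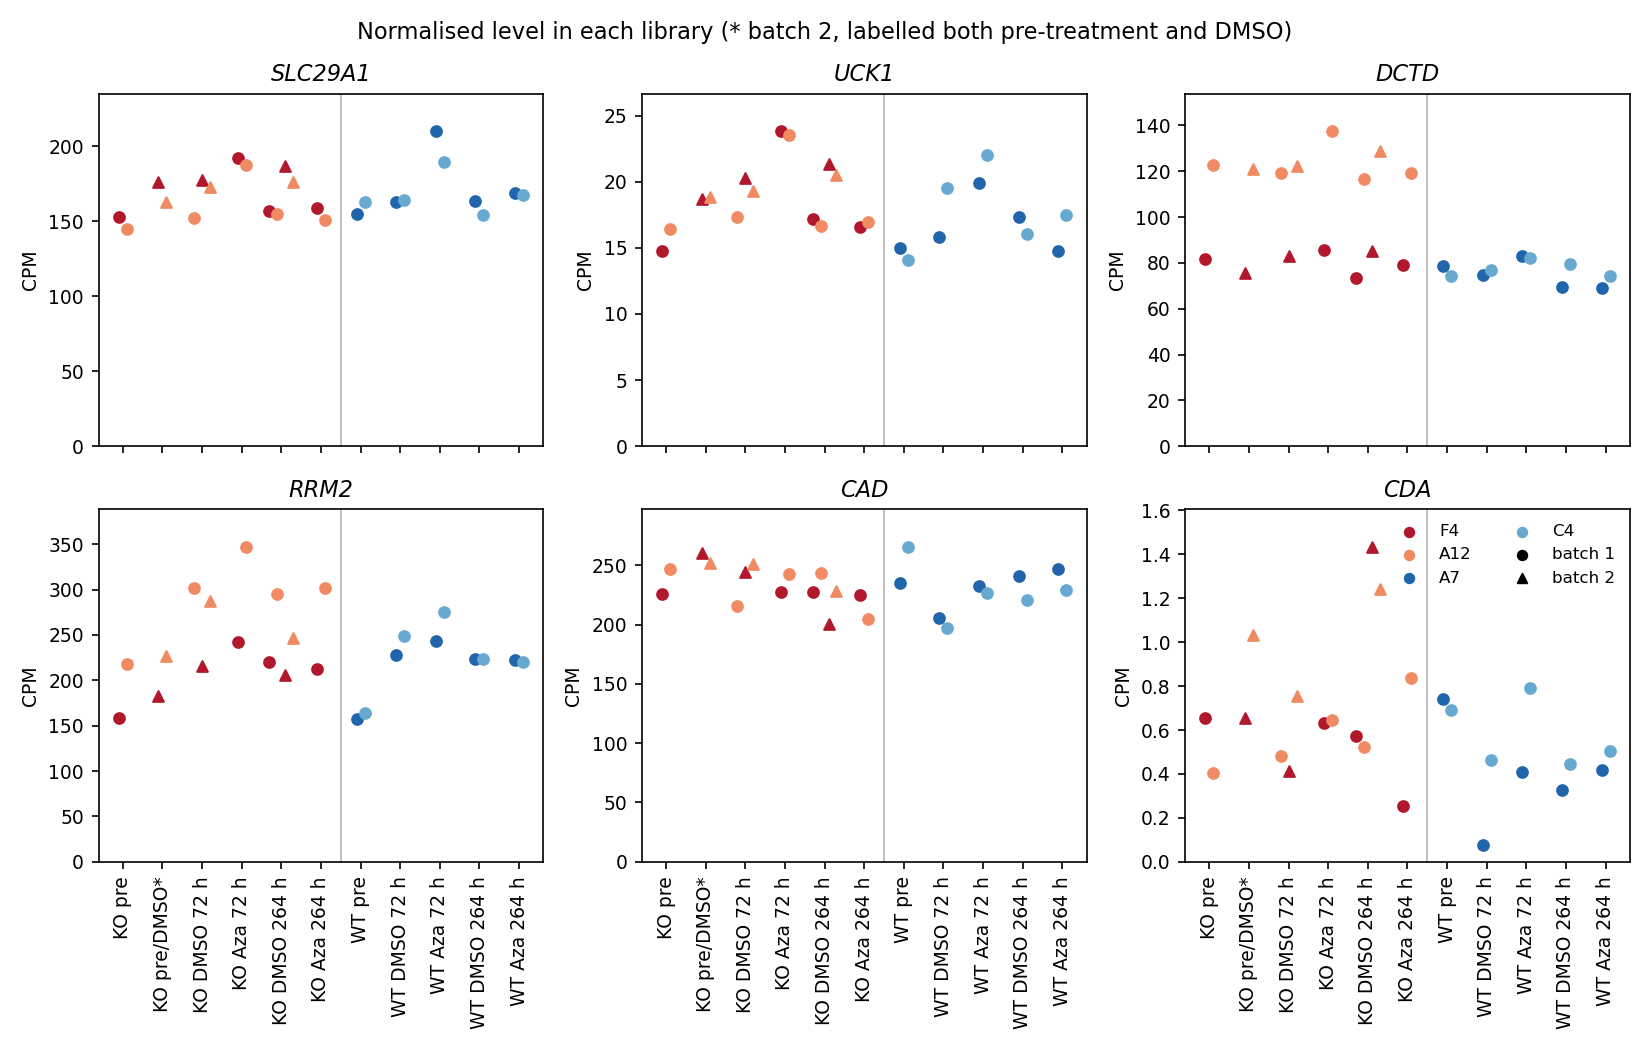
Normalised level (CPM, linear axes from 0) of 6 genes in each of 25 libraries by group; colour is the clone, circles are batch 1 and triangles batch 2, and the vertical line parts KO from WT. SLC29A1 and UCK1 peak in the Aza groups at 72 h, DCTD and RRM2 split the KO clones, and RRM2 is lowest before treatment.

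Among the kinases, UCK1 was the one called. UCK1 (ENSG00000130717.8, chromosome 9, 134399188 to 134406655, minus strand) was at 23.81 and 23.53 CPM with Aza at 72 h in KO (F4, A12), against 17.3 CPM in DMSO of batch 1 and 20.31 and 19.28 CPM in batch 2. In WT it was at 19.93 (A7) and 22.04 CPM (C4) with Aza and at 15.85 and 19.52 CPM with DMSO. Aza libraries were above all DMSO libraries of that time in both genotypes, in WT by a narrow margin. The log2 difference was 0.50 in KO (SE 0.11, fold 1.41, edgeR adjusted p = 0.00148) and 0.25 in WT (SE 0.10, 95% interval 0.04 to 0.46, adjusted p = 0.0977, not called). The test of the difference between these responses gave 0.25 (95% interval -0.05 to 0.55, adjusted p = 1), so a stronger response in KO is not shown. For UCK1 too batch 2 read higher in 3 of 3 matched pairs, by 1.114 to 1.243 times. Aza over DMSO of the same clone was 1.36 in A12 within batch 1, and 1.172 (F4) and 1.22 (A12) against batch 2. Within batch 1 alone, where 1 KO DMSO library remained, the KO difference was 0.47. It was not called with the failed library (0.33, adjusted p = 0.0824), without F4 (0.46, adjusted p = 0.0825) or without A12 (0.52, adjusted p = 0.315).

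UCK2 (ENSG00000143179.8, chromosome 1, 165796768 to 165880855, plus strand), the more abundant of the pair, was the steadiest gene of the set, with a coefficient of variation of 5.714% over 25 libraries and a span of 82.17 to 105.1 CPM. Its log2 differences at 72 h were 0.11 (95% interval -0.04 to 0.26) in KO and 0.06 (-0.08 to 0.21) in WT. DCK (ENSG00000156136.5, chromosome 4, 71858255 to 71896631, plus strand) was at 101 (F4) and 89.82 CPM (A12) with Aza at 72 h in KO, against 86.24, 78.84 and 79.79 CPM with DMSO, and at 102.8 and 103.4 against 100.7 and 101.9 CPM in WT. As for SLC29A1 and UCK1, these Aza libraries lay above all DMSO libraries of that time in both genotypes. In WT alone this also held for SLC29A2, DCTD and CAD, and in KO alone for RRM1, all uncalled there. Such a separation is thus not particular to the called genes. For DCK the KO difference of 0.16 (95% interval -0.02 to 0.34) was not called, and in WT it was 0.03 (-0.14 to 0.19). Exon bases shared with other genes made up 5.639% for UCK2 and 6.167% for DCK.

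CDA (ENSG00000158825.5, chromosome 1, 20915441 to 20945401, plus strand) had the largest fitted differences of the set at 72 h and the widest intervals. It was at 0.6306 and 0.6436 CPM (16 and 18 counts) with Aza in KO, against 0.4807, 0.412 and 0.7569 CPM (14, 13 and 19 counts) with DMSO. In WT it was at 0.4097 and 0.7928 CPM (11 and 20 counts) with Aza and at 0.07513 and 0.4632 CPM (2 and 13 counts) with DMSO, and the lowest of these, clone A7, is under the floor of 3 counts. The groups overlapped in both genotypes. The log2 difference was 0.96 (95% interval -0.12 to 2.05) in KO and 1.15 (-0.03 to 2.33) in WT, with edgeR adjusted p = 0.217 and 0.183, and a change was not detectable at this depth. Batch 2 read higher in 3 of 3 matched DMSO pairs, by 1.575 to 2.503 times.

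DCTD (ENSG00000129187.10, chromosome 4, 183811213 to 183839089, minus strand) was the third gene called in KO at 72 h. It was at 85.41 CPM (F4) and 137.4 CPM (A12) with Aza, against 83 CPM (F4, batch 2), 119.2 CPM (A12, batch 1) and 122.1 CPM (A12, batch 2) with DMSO. The clones lie far apart and the groups overlap, but within a clone Aza was higher by 1.029 to 1.153 times. Batch 2 read higher than batch 1 for DCTD in 3 of 3 matched DMSO pairs, by 1.024 to 1.163 times, which the fit takes up in its batch term. The fitted KO fold of 1.16 lies above these within-clone ratios. The log2 difference was 0.22 (SE 0.07, fold 1.16, edgeR adjusted p = 0.0241) in KO. In WT it was 0.12 (95% interval -0.01 to 0.26, not called), with 82.88 and 82.26 CPM against 74.83 and 76.88 CPM. This was the least stable of the calls: it was lost without the clone term (0.05, adjusted p = 0.946), within batch 1 (0.18, adjusted p = 0.173), with the failed library (0.13, adjusted p = 0.354), without F4 (0.21, adjusted p = 0.174), without A12 (0.24, adjusted p = 0.444) and with no low-count filter.

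The remaining genes were not called for Aza at 72 h. RRM2 (ENSG00000171848.9, chromosome 2, 10262455 to 10271545, plus strand), the small and cell cycle regulated subunit, differed by 0.11 in KO (95% interval -0.04 to 0.25) and 0.12 in WT (-0.02 to 0.25). RRM1 (ENSG00000167325.10, chromosome 11, 4115937 to 4160106, plus strand), the large subunit, differed by 0.08 (-0.04 to 0.21) and 0.03 (-0.09 to 0.15). CAD (ENSG00000084774.9, chromosome 2, 27440258 to 27466811, plus strand) differed by 0.00 in KO (-0.20 to 0.19) and by 0.19 in WT (0.01 to 0.37, adjusted p = 0.154). No interval of these 3 genes reached beyond 0.37 in either direction.

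**Figure D3:**
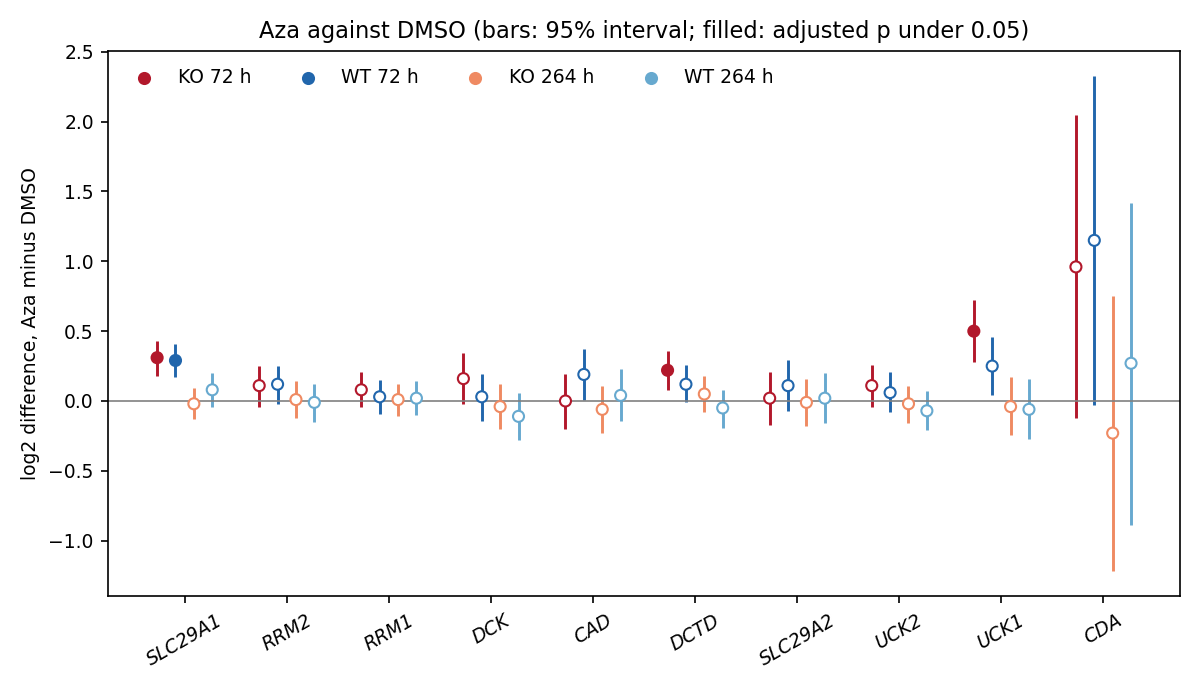
Fitted log2 difference of Aza minus DMSO for the 10 genes in KO and WT at 72 h and 264 h, with 95% intervals; filled points are called (adjusted p under 0.05). The 4 filled points are SLC29A1 in both genotypes, UCK1 and DCTD, all at 72 h, and every 264 h interval includes 0.

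At 264 h, none of the 10 genes was called. By edgeR, 0 of 10 were called in KO where 0.0979% of genes tested were, and 0 of 10 in WT where 0.5% were. None of the 10 had an unadjusted p under 0.05, and DESeq2 also called 0. Apart from CDA, at -0.23 (95% interval -1.22 to 0.75) in KO and 0.27 (-0.89 to 1.42) in WT, the log2 differences stayed within -0.11 and 0.08. SLC29A1 was at 158.8 and 150.7 CPM with Aza in KO, against 156.7 and 154.9 CPM in batch 1 DMSO and 186.5 and 176.1 CPM in batch 2 DMSO. In WT SLC29A1 was at 168.6 and 167.1 CPM with Aza and at 163.4 and 154.2 CPM with DMSO. UCK1 was at 16.59 and 16.96 CPM with Aza in KO, against 17.18 and 16.67 CPM in batch 1 and 21.36 and 20.49 CPM in batch 2, and in WT at 14.73 and 17.52 against 17.34 and 16.07 CPM. Within batch 1 the Aza and DMSO libraries overlapped in KO for both genes, and in WT they overlapped for UCK1 and did not for SLC29A1.

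The response at 264 h minus that at 72 h was tested directly. In KO, 2 of 10 genes were called, both lower, where 13.1% of genes were called: SLC29A1 at -0.33 (SE 0.07, edgeR adjusted p = 0.00349) and UCK1 at -0.53 (SE 0.13, adjusted p = 0.00644). In WT, 0 of 10 were called by edgeR or DESeq2 where 6.83% were, with 2 at an unadjusted p under 0.05: SLC29A1 at -0.21 (95% interval -0.38 to -0.04, adjusted p = 0.134) and UCK1 at -0.30 (-0.60 to 0.00, adjusted p = 0.246). The values are negative for all 10 genes in both genotypes, with medians of -0.16 and -0.14 against -0.01 and 0.00 over all genes tested. Both KO calls were lost within batch 1 (SLC29A1 -0.30, adjusted p = 0.0698; UCK1 -0.48, adjusted p = 0.155), with the failed library, and without either KO clone. Comparing the genotypes' Aza responses, edgeR called 0 of 10 and 0% of all genes at 72 h, where 631 of 18391 had an unadjusted p under 0.05, and 0 of 10 and 0% at 264 h, where 571 had. None of the 10 genes had an unadjusted p under 0.05 in either, and DESeq2 called 0 of all genes in both.

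RRM2 was higher in DMSO cultures at 72 h than before treatment in both genotypes. This comparison, of DMSO at 72 h against pre-treatment libraries, was added after the levels had been seen. Before treatment RRM2 was at 158.7 CPM (F4), 218.1 CPM (A12), 157.7 CPM (A7) and 164.4 CPM (C4). In DMSO at 72 h it was at 302.2 CPM (A12, batch 1), 215.7 CPM (F4, batch 2), 287.3 CPM (A12, batch 2), 228.4 CPM (A7) and 249 CPM (C4). In WT the groups do not overlap; in KO F4 at 72 h lies just below A12 before treatment, and each clone was higher at 72 h. The log2 difference was 0.54 in KO (SE 0.07, fold 1.45, edgeR adjusted p = 3.53e-05) and 0.57 in WT (SE 0.07, fold 1.48, adjusted p = 8.57e-06). Without the clone term neither passed (0.65, adjusted p = 0.121, and 0.57, adjusted p = 0.15), and the KO call was lost without A12 (0.55, adjusted p = 0.07). In the batch 2 libraries with both labels, which this fit does not use as pre-treatment, RRM2 was at 182.5 CPM (F4) and 226.4 CPM (A12). The later batch 2 libraries were higher, at 215.7 (F4) and 287.3 CPM (A12) at 72 h and 206.1 and 246.8 CPM at 264 h. For RRM2 batch 2 read lower than batch 1 in each of 3 matched DMSO pairs, at 0.8347 to 0.9509 times. The fit takes this up in its batch term. Within batch 1, where 1 KO DMSO library at 72 h remained, the KO difference was 0.46.

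In KO, RRM2 was the 1 of 10 genes called between pre-treatment and DMSO at 72 h, where 11.4% of genes tested were called. In WT, 3 of 10 were called where 13.6% were: RRM2 was higher, while CAD (-0.32, SE 0.09, edgeR adjusted p = 0.0185) and SLC29A2 (-0.32, SE 0.09, adjusted p = 0.0161) were lower. CAD went from 235.4 and 265.6 CPM to 205.9 and 197 CPM, and SLC29A2 from 71.22 and 73.51 CPM to 59.28 and 57.04 CPM, with no overlap in either. Both calls were lost without the libraries labelled C4 (CAD -0.17, adjusted p = 0.407; SLC29A2 -0.24, adjusted p = 0.208), with the failed library and without the clone term. With the WT pre-treatment clone labels exchanged both held (adjusted p = 0.00335 and 0.00554). Another 3 genes in WT had an unadjusted p under 0.05 and were not called. UCK1 differed by 0.28 (95% interval 0.07 to 0.50, adjusted p = 0.0722) and was called with the WT pre-treatment clone labels exchanged and without A7. CDA differed by -1.44 (-2.58 to -0.31, adjusted p = 0.0843), on 21 counts in each library before treatment and 2 and 13 at 72 h, and was called with no low-count filter and without C4. RRM1 differed by 0.13 (0.01 to 0.25, adjusted p = 0.147). From 72 h to 264 h in DMSO, 0 of 10 genes were called in KO, where 4.68% were, and 0 of 10 in WT, where 0.00544% were. DESeq2 called 0 of the 10 in both, and 2 in KO and 1 in WT had an unadjusted p under 0.05. DCK in KO came nearest at 0.19 (SE 0.06, adjusted p = 0.0837).

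KO and WT were compared in batch 1, 2 clones against 2 without a clone term, in each condition but DMSO at 72 h, where 1 KO library remained. None of the 10 genes was called by edgeR or DESeq2, or had an unadjusted p under 0.05: 0 of 10 before treatment where 0.0543% of 16560 genes tested were called, 0 of 10 with Aza at 72 h where 0.19% were, 0 of 10 with DMSO at 264 h where 0.208% were and 0 of 10 with Aza at 264 h where 0.0488% were. DCTD had the largest difference of the abundant genes, 0.43, 0.43, 0.36 and 0.47 on the log2 scale in these 4 comparisons (edgeR adjusted p 0.452 to 0.721). Those means hide the clones. DCTD ran at 73.41 to 85.41 CPM in F4, and at 116.7 to 137.4 CPM in A12, against 68.9 to 82.88 CPM in WT, so F4 overlapped WT and A12 did not.

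The same split held in all conditions. A12 exceeded F4 in DCTD in 7 of 7 pairs of libraries of the same condition and batch, by 1.471 to 1.608 times (median 1.51), whereas the WT clones stayed at 0.9408 to 1.14 times of each other. RRM2 was also higher in A12 in 7 of 7 pairs, by 1.198 to 1.432 times (median 1.344). SLC29A1 was lower in A12 in 7 of 7 pairs, at 0.9263 to 0.9883 times F4, and RRM1 at 0.8712 to 0.9637 times. These are values of single clones, with no replicate clones behind them.

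The genes around DCTD on chromosome 4 shifted with it. All 6 other coding genes tested within 1 Mb were higher in A12 than in F4, by 0.35 to 2.36 on the log2 scale (median 0.54), next to 0.62 for DCTD and a median of -0.01 over 13408 coding genes. They are WWC2 (0.58), CDKN2AIP (0.46), ING2 (0.35), RWDD4 (0.55), TRAPPC11 (0.53) and STOX2 (2.36). RRM2 differs from its surroundings in this: it was 0.41 higher in A12, while 12 of its 14 neighbours were lower and their median was -0.10. Around CDA, the 17 neighbours had a median KO minus WT difference of -0.63, -0.53, -0.61 and -0.54 in the 4 comparisons, while CDA itself, at its few counts, was at -0.42, 0.09, 0.52 and 0.25. DCK was 0.15 lower in A12 with 5 of 6 neighbours higher. DNA copy number was not measured, and its part in these values was not tested.

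**Figure D4:**
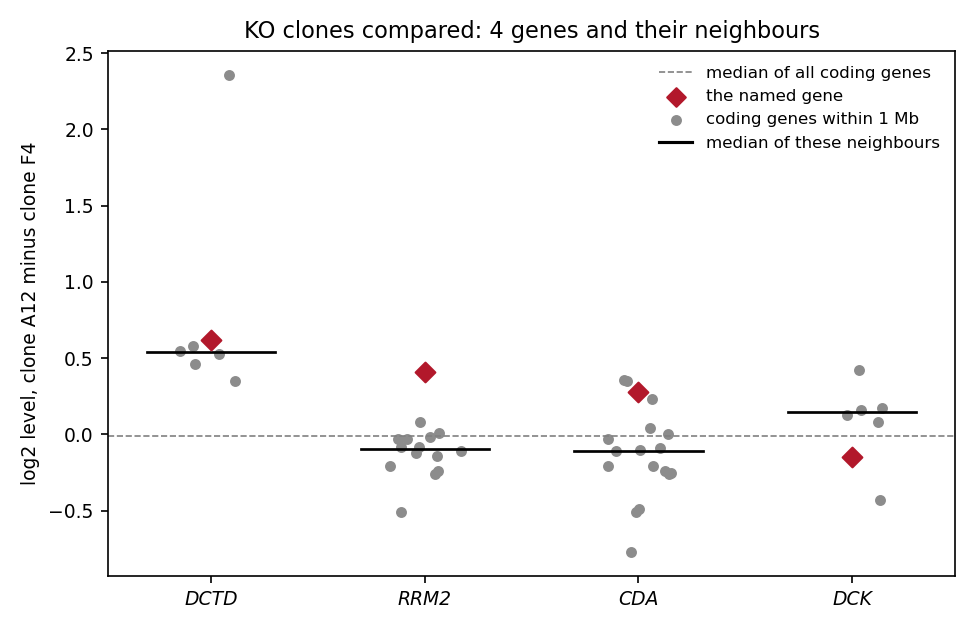
Log2 level in clone A12 minus clone F4, averaged over matched libraries, for DCTD, RRM2, CDA and DCK (diamonds) and for coding genes within 1 Mb of each (grey points; bar, their median); the dashed line is the median of all coding genes. All neighbours of DCTD lie above 0, whereas those of RRM2 have a median of -0.10.

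Beyond the 10 genes, 7 lists of the rest of pyrimidine metabolism held 57 genes that could be tested. At 72 h with Aza, 6 of the 57 rose and 8 fell in KO (24.6% called, against 20.1% of all genes), and 6 rose and 7 fell in WT (22.8% against 18.3%). At 264 h edgeR called 0 in KO, with 3 at an unadjusted p under 0.05, and 1 in WT, with 5, and DESeq2 called 0 in both. Among the 13 other pyrimidine kinases, CMPK2, a mitochondrial nucleoside monophosphate kinase, rose by 1.04 in KO (SE 0.11) and 1.13 in WT (SE 0.11), from 30.84 ± 2.078 to 66 ± 11.57 CPM in KO (SD, n = 3 and 2) and from 25.54 ± 3.336 to 56.4 ± 15.49 CPM in WT (n = 2 each). TK1, the cytosolic thymidine kinase, rose by 0.45 and 0.39 (SE 0.08 and 0.07). NME3, a nucleoside diphosphate kinase, fell by 0.35 in KO and was at -0.26 in WT.

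Of the 4 other genes of de novo synthesis, 2 fell in KO and 1 in WT. CTPS2, a CTP synthase, fell by 0.47 and 0.50, and DHODH, the mitochondrial dihydroorotate dehydrogenase, fell by 0.47 in KO and was at -0.23 in WT. CAD, with its interval around 0 in KO, did not share this. In thymidylate synthesis and dUTP removal, 3 of 9 rose and 2 fell in KO and 2 rose and 2 fell in WT. The folate enzyme MTHFD1L fell by 0.78 in both genotypes (SE 0.06), from 130.8 ± 2.499 to 74.59 ± 2.426 CPM in KO and from 129.2 ± 4.843 to 75.4 ± 3.364 CPM in WT. DNPH1, which removes modified deoxynucleotides, rose by 0.60 and 0.46, and the dUTPase DUT by 0.37 and 0.26.

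Nucleotidases work against the kinases. Of 11 nucleotidases and triphosphohydrolases tested, 1 fell in KO, and 1 rose and 1 fell in WT: NT5C2, a cytosolic nucleotidase, fell by 0.51 and 0.57 (SE 0.08), and ENTPD4 rose by 0.26 in WT and was at 0.20 in KO. Of 8 other transporters and exporters tested, the exporter ABCB1 fell by 0.39 and 0.44, and ABCC4 fell by 0.20 in WT and was at -0.10 in KO. ABCG2, an exporter at a few CPM, rose by 0.86 in WT at 264 h (SE 0.20, edgeR adjusted p = 0.0442). The concentrative transporters SLC28A1 and SLC28A2 reached at most 3 counts in any library. SLC28A3, the third of them, reached 31 counts (1.108 CPM) and was at 1.54 in KO (SE 0.72, adjusted p = 0.144) and 0.07 in WT (SE 2.05). Among 6 reductase partners, TXNRD1 fell by 0.27 and 0.30 and TXN2 rose by 0.27 and 0.24. Of the 6 breakdown and uracil salvage genes tested, edgeR and DESeq2 called 0 at 72 h and 0 had an unadjusted p under 0.05, with UPRT at 0.07 and 0.19 and CDADC1 at 0.19 and 0.00.

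**Figure D5:**
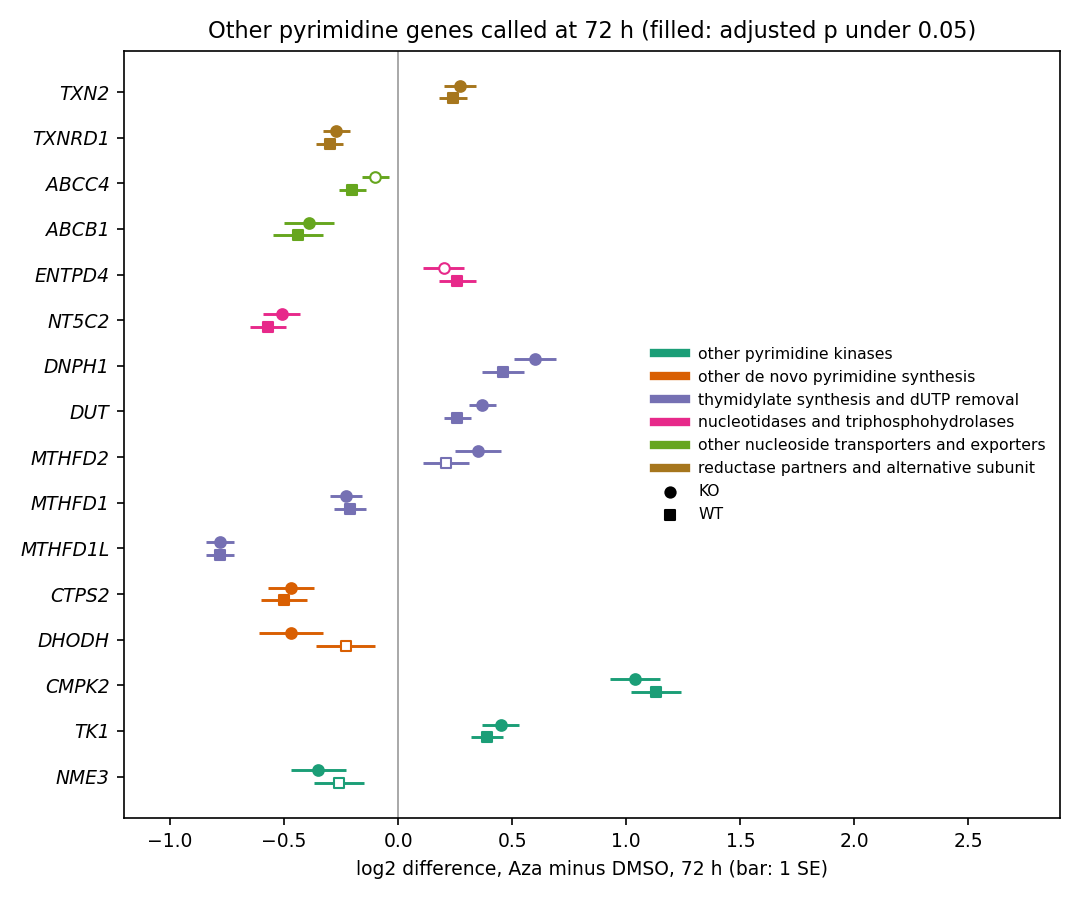
Log2 difference of Aza minus DMSO at 72 h, with 1 SE, for the 16 other pyrimidine genes called in KO or WT, coloured by list; circles are KO, squares WT, and filled symbols have an adjusted p under 0.05. CMPK2 is the highest and MTHFD1L the lowest, and each gene has the same sign in both genotypes.

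Purine and replication genes were counted for comparison, with Aza at 72 h, where 20.1% of all genes tested were called in KO and 18.3% in WT. Of 18 purine genes, 4 rose and 1 fell in KO and 3 rose and 1 fell in WT, which is near those shares. The one that fell was ADK, adenosine kinase, by 0.85 and 0.96 (SE 0.09), and IMPDH2, which feeds GMP synthesis, rose by 0.64 and 0.60. Of 27 G1/S genes, which include the company RRM2 keeps in the cell cycle, 13 rose and 1 fell in KO. In WT 10 rose and 2 fell, against the same shares of all genes, and the medians were 0.20 and 0.17. E2F1 rose by 0.84 and 0.80, CDT1 by 0.65 and 0.45 and CDC6 by 0.57 and 0.44, all at adjusted p under the threshold, while RRM2 and RRM1 were at 0.12 or less in either genotype.

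The genes whose log2 CPM followed each member most closely over the 25 libraries were listed by Pearson's r. These libraries share clones, conditions and batches, so r describes them and carries no test. DCTD was followed by MAT1A, CCDC152 and GRID1, each at 0.97, UCK1 by TUBB4B (0.92), TUBA1C (0.92) and UROD (0.90), and DCK by DLAT (0.93), UBE2E1 (0.92) and PPP1R2 (0.90). RRM2 was followed by ZNF134 (0.91), NONO (0.90) and POMP (0.89), SLC29A1 by TSEN54 (0.90), RIC8A (0.90) and TAGLN2 (0.89), and RRM1 by HACD3 (0.90), BRD7 (0.89) and LIMS1 (0.89). SLC29A2 was followed by SREBF1 (0.86), ZDHHC8 (0.85) and ATXN2L (0.83), UCK2 by INSIG1 (0.83), FDXR (0.83) and RFLNB (0.82), CAD by ABCD4 (0.84), SEC16A (0.80) and SRRM2 (0.80), and CDA by MICB (0.83), OCEL1 (0.82) and S1PR5 (0.80). Within the set, the pairs of largest r were SLC29A1 with UCK1 (0.75), SLC29A2 with CAD (0.76), DCK with RRM1 (0.76) and, in the other direction, SLC29A2 with RRM1 (-0.79). UCK1 and UCK2 were at 0.26, SLC29A1 and SLC29A2 at 0.07 and RRM1 and RRM2 at -0.02.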

How the data were processed

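RNA sequencing libraries of TF-1 clones were made with a stranded mRNA kit, per the labels' protocols. The authors deposited whole-number counts of reads per gene, made with featureCounts 1.6.2 from read pairs and the exons of GENCODE release 19, per the file headers, without a strand option, so overlapping genes cannot be told apart. STAR 2.6.1d, DESeq2, cutadapt and FastQC were used with hg19, per the submitters' processing notes. Which values passed quality control is taken from the labels. From the deposited counts, CPM and log2 CPM (prior count 2) with TMM library sizes, and TPM from the table's exon lengths, were computed with edgeR 4.0.16 under R 4.3.3.

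Genes passing filterByExpr (minimum count 10) were tested with edgeR's robust quasi-likelihood test and Benjamini-Hochberg adjustment over all genes tested. Intervals are 95% and come from that fit. The shared model of 25 libraries held group, clone and batch terms. KO against WT was fitted on batch 1 alone, and KO against WT with DMSO at 72 h was not fitted, since 1 KO library remained there. The clone name was taken as a pairing, since libraries with 1 clone name are labelled as coming from 1 clone. Over 3000 variable genes, same-clone deviations correlated at 0.287 to 0.620 among later KO libraries and 0.451 to 0.516 among later WT libraries. Between WT pre-treatment libraries and later ones they correlated at -0.523 to -0.478, so the clone labels there are in doubt. Those labels were kept as given. Over 18 within-group pairs, counts differed beyond sampling noise, with a chi-square of 11 or more for each degree of freedom. Floors and intervals of counts cover counting error only.

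Gene symbols came from a table of current names for 51996 gene IDs and from GENCODE release 29 for 342, and 5435 kept their ID. The members, the 16 other gene lists (192 of 194 symbols matched over 21 lists) and the comparisons were chosen with earlier results of these data known. The text names all 10 members. Of each other list it names up to 3 called genes of lowest p, or the 2 most abundant where none was called. It also names the 3 coding genes of highest r per member and the neighbours within 1 Mb. Alternatives were DESeq2 1.42.0, RLE size factors, no low-count filter (at least 1 count), no clone term, batch 1 only, adding the failed library, exchanging or leaving out the WT pre-treatment libraries, and leaving out each clone. Promoter windows are RefSeq's on GRCh38.p14.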

Additional observations from a re-analysis of the deposited data

Results flagged for a closer look

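For 2 genes the response to Aza differed between the times in KO, by a test of the difference itself. The log2 response at 264 h minus that at 72 h was -0.33 for SLC29A1 and -0.53 for UCK1. Both values were also below 0 in WT, where neither was called, and both lost the call within batch 1. In the KO DMSO group at 264 h, the one group of 4 libraries, no library stood apart from the others by Dixon's criterion for any of the 10 genes. That group holds both KO clones in both batches. Where clones or batches differ its values fall into pairs, which the criterion does not flag, so no conclusion is drawn from this.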

How the results depend on the processing

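The number of members called at 72 h was 3 in KO and 1 in WT. It was 0 in both with the failed library, and 0 to 3 in KO and 0 to 1 in WT when 1 clone was left out (0 without F4 or A12 in KO, 0 without A7 in WT). For the response at 264 h minus 72 h in KO, 2 became 0 within batch 1 and with the failed library, and 0 to 2 with 1 clone left out. For DMSO at 264 h against 72 h in KO, 0 became 1 (DCK) with no low-count filter, without the WT pre-treatment libraries and with their clone labels exchanged. For DMSO at 72 h against pre-treatment, an analysis without the replicate block (the clone term) gave 0 members in KO in place of 1 and 0 in WT in place of 3, the failed library left 1 in WT, and leaving out a clone gave 0 to 1 in KO and 2 to 4 in WT. There, 3 became 4 with the WT pre-treatment labels exchanged (UCK1 added) and with no low-count filter (CDA added). Without the block DCTD also lost its call with Aza at 72 h in KO, where 3 became 2, as it did within batch 1 and with no low-count filter, and SLC29A1 and UCK1 kept theirs. No paired analysis was possible for KO against WT because clones are nested in genotype. There, 0 members became 1 (DCTD) before treatment and with Aza at 264 h with no low-count filter. Leaving out a clone gave 0 to 1 before treatment and with Aza at 72 h and 0 to 2 in each 264 h comparison, the higher values all without F4, where A12 is the single KO library and the spread comes from the WT clones. Exchanging the WT pre-treatment labels ended none of the members' calls.

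Of 175 recomputed member counts, 146 equalled the reported one, 7 differed by at most 1.5 times and 22 by more. Of 1028 recomputed differences of single called genes, 864 kept their call, 161 lost it and 3 turned direction, all in KO at 72 h with the failed library: FDXR at -0.10, HBA1 at -0.26 and TXN2 at -0.13. The count of all genes called moved as well. For Aza at 72 h it went from 3694 to as many as 4782 in KO, and to far fewer where a KO clone was left out. In WT at that time it went from 3366 to between 1089 and 4386. For Aza at 264 h it went from 18 to as many as 172 in KO, and to fewer where a KO clone was left out. In WT at 264 h it went from 92 to between 4 and 355. For the response at 264 h minus 72 h it ran from 409 to 3427 in KO (2418 as reported) and from 202 to 2031 in WT (1257). For DMSO at 264 h against 72 h it ran from 0 to 1912 in KO (860) and from 0 to 58 in WT (1). For DMSO at 72 h against pre-treatment it ran from 103 to 3378 in KO (2088) and from 306 to 3385 in WT (2509). For KO against WT it ran from 9 to 785 before treatment (9), from 8 to 884 with Aza at 72 h (31), from 0 to 1113 with DMSO at 264 h (34) and from 8 to 1270 with Aza at 264 h (8). The genotypes' responses gave 0 to 23 at 72 h and 0 to 13 at 264 h, the higher values with no low-count filter. The causes were not tested, apart from the fewer libraries where a clone or batch is left out. With DESeq2 or RLE size factors the median of all genes moved by at most 0.01 on the log2 scale. Depth limits CDA, at 2 to 49 counts a library.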

Other observations

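Stress and lineage genes outside pyrimidine metabolism also changed with Aza at 72 h. Of 17 p53 target genes tested, 8 rose and 1 fell in KO and 6 rose and 1 fell in WT, where 20.1% of all genes tested were called in KO and 18.3% in WT. BTG2, which restrains cell growth, rose by 1.87 in KO and 1.18 in WT on the log2 scale, and BBC3, which promotes cell death, by 1.23 and 0.92. Without A12 neither was called in KO (BTG2 at 2.03, BBC3 at 1.10), and without A7 BBC3 was not called in WT (0.66). EPB42, a red cell membrane gene, rose by 2.24 and 1.85. The embryonic globin gene HBE1 rose by 2.34 and 1.34 at 72 h and by 4.11 and 2.52 at 264 h, a time at which none of the 10 uptake and pyrimidine genes was called. Its calls in KO were lost without A12 at both times (1.34 and 3.47), and those in WT without A7 (1.19 and 2.02) and, at 72 h, also without C4. The granulocyte factor gene CEBPE rose from 0.7837 ± 0.3841 CPM (SD, n = 3) with DMSO to 13.79 ± 7.854 CPM (SD, n = 2) with Aza in KO, or by 4.59 on the log2 scale, and lost its call without A12 (5.14). Of 4 megakaryocyte genes tested, 1 rose in KO and 3 in WT, with GP6 up by 0.68 and 0.69. Of 5 non-blood genes tested, 3 rose in KO and 4 in WT. Of 4 lymphoid genes tested, edgeR and DESeq2 called 0 in either genotype, and 0 had an unadjusted p under 0.05.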
